A study of Canis lupus familiaris with 34 samples.

Results

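Oxidative phosphorylation is the last stage of respiration, in which mitochondria use electrons from food to drive a proton pump and turn the returning flow of protons into ATP. Complex I (NADH dehydrogenase) and complex II (succinate dehydrogenase) pass electrons to coenzyme Q, complex III hands them to cytochrome c, complex IV (cytochrome c oxidase) gives them to oxygen, and complex V (ATP synthase) makes ATP. Most subunits are encoded in the nucleus and imported, while a few core subunits are encoded in the mitochondrial genome. Tumours, osteosarcoma of bone among them, are known for combining this route with glycolysis to varying degrees.

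The 43 genes described here are those rows of a dog osteosarcoma expression table whose names mark them as nuclear subunits of the complexes or close relatives of subunits, out of 23988 rows. They were picked by name and by no measured value. The hypoxia-linked paralog NDUFA4L2 was left out by the same rule. Complex I contributed 24 genes, of which 12 belong to the matrix arm that takes up electrons and 12 to the membrane arm that pumps protons. Complex II contributed 2 genes, complex III 4, complex IV 7 and complex V 6. The 6 of complex V include ATP5SL, which is counted there by its name in all values by complex. Some familiar subunits, SDHB, SDHD, COX6A1 and COX8A among them, have no row under those names and were not analysed here, nor were the mitochondrially encoded subunits.

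RNA sequencing gave 34 libraries from Golden Retrievers, as each sample's labels state, although the series' design text also names Rottweilers. Of these, 30 were primary tumours of bone, and libraries DOS.46 and DOS.46.2 shared a title number and were averaged as 1, which leaves 29 primary tumours. The others were 1 library labelled as a metastasis (DOS.6M), 2 osteosarcoma cell lines described as derived from earlier primary tumours (OSCA.8 and OSCA.78), and 1 culture of osteoblasts, which form bone (CNOB). Each line is a single library. The sources used here give no age, treatment or culture conditions, nor is it stated that a line comes from the tumour with its number. The unit was taken to be FPKM, which divides the fragments of a gene by its length and the size of the library. That is meant to let genes of different length be compared. Since the unit is assumed and the annotation is not given, differences in level between genes may be technical in part.

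Summed FPKM ran from 479053 to 837067 in the tumour libraries and reached 1418310 in the osteoblast culture, and the 10 most abundant genes took 7.14% to 39.1% of a library's sum. Sequencing depth in reads is unknown, and p-values measure only the spread between these samples, which may be technical in part. For the 2 cell lines against 29 tumours, that spread is almost wholly the spread among tumours. The lines are assumed to vary as the tumours do. A pair of tumours, DOS.100 and DOS.32, were alike in their deviations from the tumour mean over 15165 genes (r = 0.843), as were DOS.110 and DOS.115 (r = 0.668), against 0.463 for the next pair. DOS.46 and DOS.46.2 stood at 0.744. Nothing in the labels ties those tumours to 1 dog, and results are given with all of them and, where it matters, without DOS.32 and DOS.115. Macrophage markers summed to between 98.5 and 1597 FPKM in tumours and to 1.79 in OSCA.8, 2.79 in OSCA.78 and 24.998 in the osteoblast culture. Of the 8 measured markers of bone-forming cells, 5 fell in the lines, and their sum was 3081 FPKM in OSCA.8, 2049 in OSCA.78 and 5584 in the osteoblast culture, against 3587 to 26537 in tumours.

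Nearly all of these genes were expressed in every tumour. A filter asking for 1 FPKM or more in 2 or more libraries passed 42 of the 43. The gene left out was NDUFC1, a small accessory subunit of the membrane arm, which was listed at 0 in 31 of the 34 libraries and at 4.33 FPKM in DOS.113, 0.749 in DOS.32 and 0.709 in DOS.73. A listed 0 need not mean absent RNA in this table, since OGDH and MDH2, enzymes of the tricarboxylic acid cycle that nearly every cell uses, were listed at 0 in 34 and 26 libraries. COX6A2, the heart and skeletal muscle form of subunit 6A of complex IV, reached 1 FPKM in 18 of 29 tumours and was listed at 0 in 3. NDUFB5, an accessory subunit of the membrane arm, reached it in 26.

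**Figure D1:**
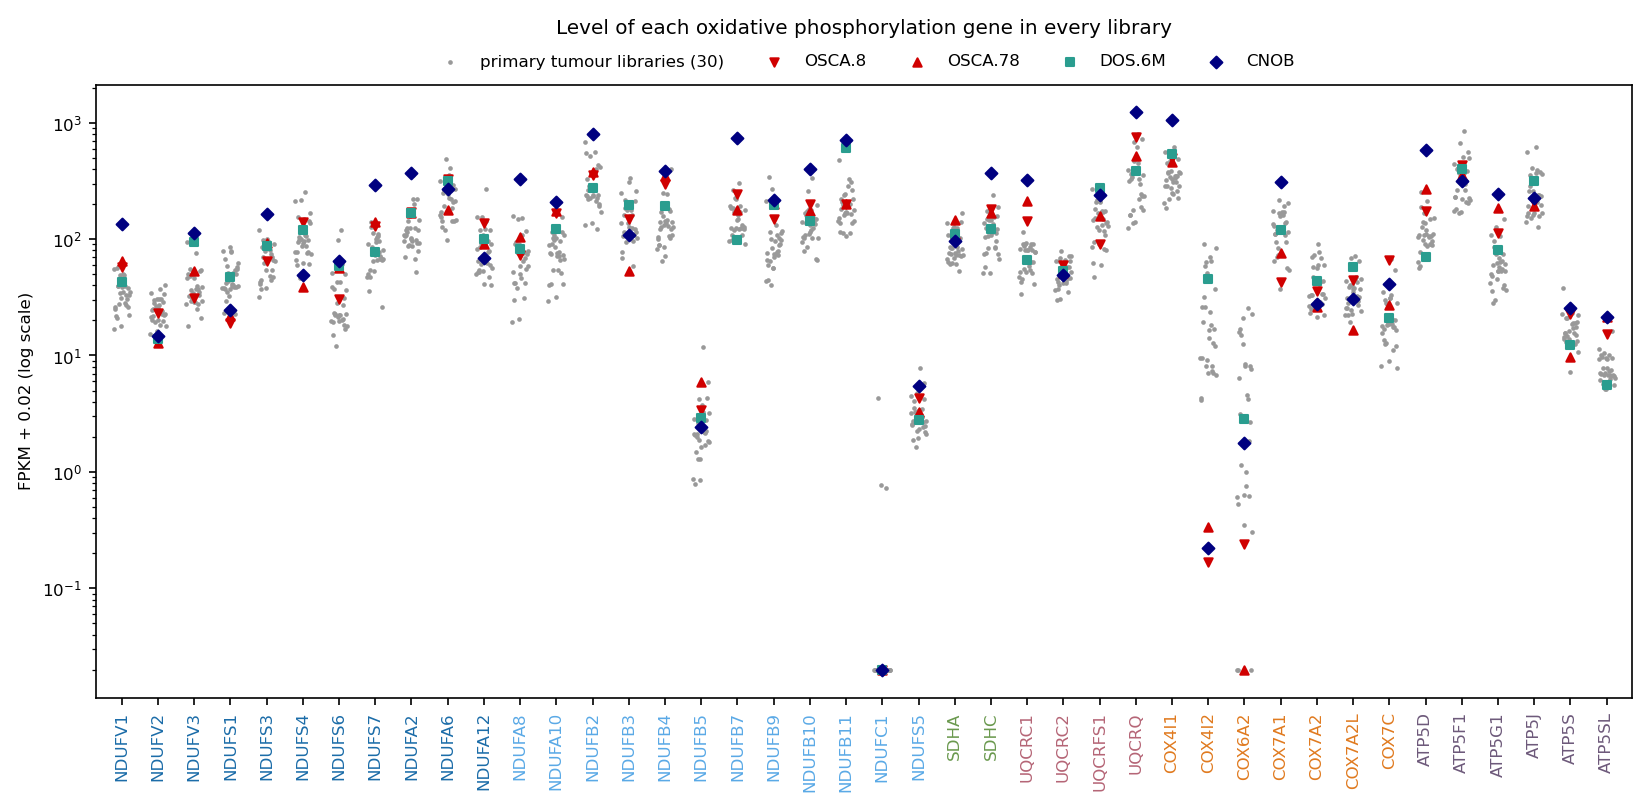
Level of 42 of the 43 genes in every library, in FPKM with 0.02 added on a log axis. Grey points are the 30 primary tumour libraries, triangles the cell lines, squares the metastasis and diamonds the osteoblast culture, and gene names are coloured by complex. Most genes sit above 10 FPKM, COX6A2, ATP5SL, NDUFB5 and NDUFS5 lie lower in most tumours, and NDUFC1 is listed at 0 in most libraries. The lines and the culture lie farthest below the tumours at COX4I2.

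Levels as listed differed widely between subunits of the same complex. In complex I the highest mean among tumours belonged to NDUFB2, an accessory subunit of the membrane arm, at 306 ± 140 FPKM (SD, n = 29), and among genes past the filter the lowest belonged to NDUFB5, at 2.62 ± 2.08 FPKM (SD, n = 29). In complex II the membrane anchor SDHC averaged 117 ± 45.4 FPKM and the flavoprotein SDHA, which oxidises succinate, 90.6 ± 28.7 FPKM (SD, n = 29 each). These means differed by less than 1 SD of SDHC. UQCRQ, a small subunit of complex III, averaged 337 ± 179 FPKM and the core protein UQCRC2 52.1 ± 13.2 FPKM. In complex IV the range ran from COX4I1, the common form of subunit 4, at 340 ± 103 FPKM to COX6A2 at 6.39 ± 7.72 FPKM. In complex V it ran from ATP5F1, subunit b of the stalk that holds the enzyme still, at 343 ± 161 FPKM to ATP5SL at 7.90 ± 2.32 FPKM (SD, n = 29 for each of these genes). ATP5SL is named after ATP synthase but is known as a factor in the assembly of the membrane arm of complex I.

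Across the primary tumours these genes tended to be high or low together. The mean of log2(FPKM + 1) over the 42 genes, called their mean level below, ran from 5.36 in DOS.100 to 6.87 in DOS.57, with a median of 6.04 and an SD of 0.39 (n = 29). That range is a 2.85-fold difference on the log2(FPKM + 1) scale. The same mean over all 15165 genes tested varied by an SD of 0.038. A mean over so many genes that move little together is bound to be steadier, so the 2 SDs are not alike. For lists nearer in size the SD was 0.57 over 29 cytosolic ribosomal protein genes and 0.34 over 58 mitochondrial ribosomal protein genes. DOS.57 held the highest value of 17 of the 42 genes, and DOS.101 of a further 7. Such counts were not made for all genes. DOS.57 also had the largest summed FPKM of the tumour libraries, 837067. As a share of that sum, these genes and NDUFC1 took 1.05% in DOS.57, less than 1.24% in DOS.101 and 1.08% in DOS.8. The lowest values were spread over more tumours, with 7 genes lowest in DOS.115, 6 in DOS.100, 5 each in DOS.37 and DOS.75, and 4 each in DOS.11 and DOS.84. The 5 tumours with the lowest mean level were DOS.100, DOS.32, DOS.115, DOS.11 and DOS.110, so both of the closely alike pairs of tumours lie at that end.

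**Figure D2:**
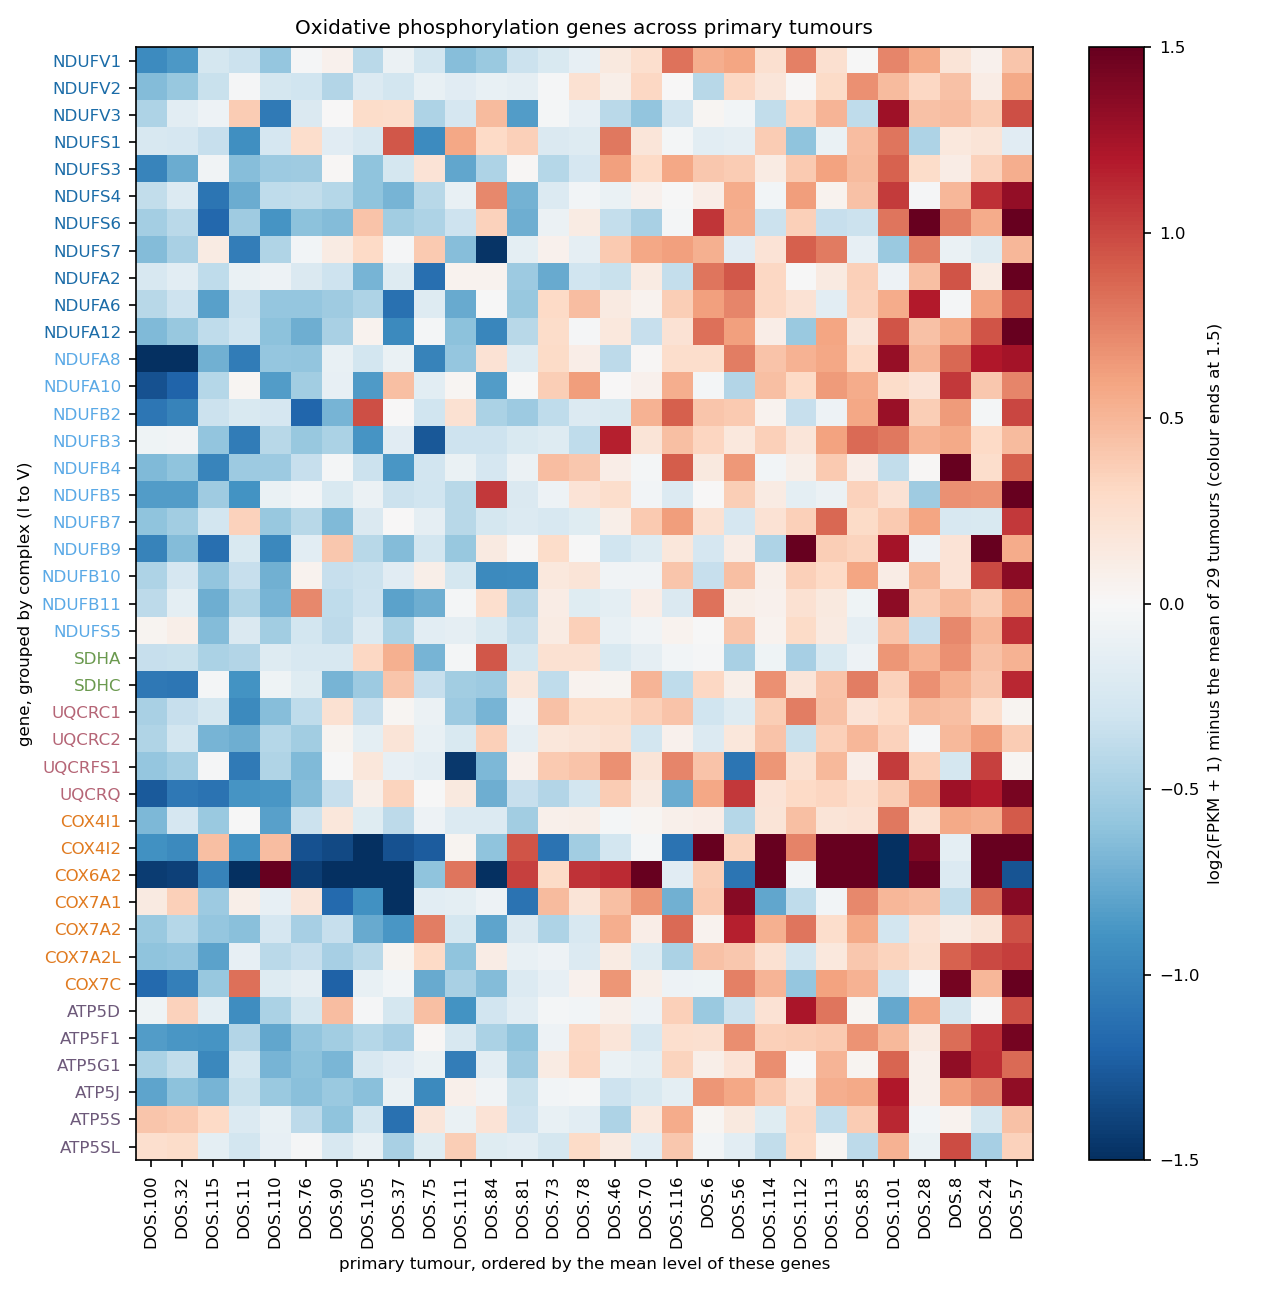
Of the 42 genes past the filter, 41 (rows, grouped by complex) in the 29 primary tumours (columns, ordered by mean level), as log2(FPKM + 1) minus the gene's mean over tumours, with colours ending at 1.5 in either direction. Rows turn from blue on the left to red on the right for most genes, with COX4I2 and COX6A2 as the most uneven rows and NDUFS1, ATP5S and ATP5SL following the order least.

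The mean Pearson correlation between pairs of these genes over the 29 tumours was 0.425 (861 pairs, 820 of them above 0), against 0.0012 between all genes tested. Without DOS.32 and DOS.115 it was 0.416, and without DOS.57 it was 0.381. These correlations are descriptions, and both genes of a pair are read from the same library. For scale, 29 cytosolic ribosomal protein genes gave 0.662 and 58 mitochondrial ribosomal protein genes gave 0.408, lists that were drawn up after their values had been seen. The highest correlations joined genes of different complexes as well as genes of the same arm, with NDUFA8 with ATP5J at 0.868, NDUFV1 and NDUFS3 at 0.855, and NDUFB10 and ATP5F1 at 0.851. NDUFV1 binds NADH and NDUFS3 is a core subunit of the same arm, ATP5J is a coupling factor of the ATP synthase stalk, and NDUFA8 and NDUFB10 are accessory subunits of the membrane arm.

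Within complexes the mean pairwise correlation was 0.513 in the membrane arm of complex I, 0.397 in its matrix arm, 0.530 in complex III, 0.407 in complex IV and 0.341 in complex V, and the 2 genes of complex II gave 0.353. The mean levels of the complexes followed each other over the tumours, from r = 0.585 between complexes II and IV to 0.920 between complexes I and V (n = 29). Between the arms of complex I the value was 0.941. ATP5F1 had the highest mean correlation with the other genes, 0.616. The genes counted under complex V were unlike in this, with ATP5J at 0.579 and ATP5G1 at 0.551 but ATP5D at 0.219 and ATP5S and ATP5SL lower still. The value of 0.341 for complex V thus includes ATP5SL, which is not a subunit of ATP synthase. NDUFS1, the large iron-sulphur subunit at the entry of complex I, had the lowest, 0.1105, followed by ATP5SL at 0.163 and ATP5S, which regulates coupling in ATP synthase, at 0.173. The lowest single pairs were NDUFV3 with COX6A2 at -0.414 and NDUFS1 with the ATP synthase subunit ATP5D at -0.323.

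The spread of single genes among tumours was close to that of genes in general. The median SD of log2(FPKM + 1) was 0.57 over the 42 genes and 0.54 over all genes tested. Which was larger depended on the processing. With 0.1 FPKM added in place of 1 they were 0.57 and 0.68, with quantile normalisation 0.50 and 0.53. Scaling to the same sum gave 0.56 and 0.57, and upper quartile scaling 0.58 and 0.54. Different tumours differed by a median of 0.529 per gene over these 42 genes (406 pairs of tumours), with pairs from 0.0998 (DOS.100 and DOS.32) to 1.53, and DOS.46 and DOS.46.2, the only pair that shares a title number, differed by 0.0749. The 5 genes of largest SD were COX6A2 (1.57), COX4I2 (1.27), NDUFA8 (0.77), NDUFS6 (0.76) and UQCRQ (0.74). COX4I2 is the second form of subunit 4, known from lung and from the cells that wrap small vessels, and NDUFS6 is a zinc-binding accessory subunit. The 5 of smallest SD were ATP5SL (0.34), NDUFV2 (0.34), UQCRC2 (0.37), NDUFS5 (0.39) and COX4I1 (0.42), where NDUFV2 is the iron-sulphur partner of NDUFV1 and NDUFS5 an accessory subunit of the membrane arm.

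NDUFS6 ran from 12.1 FPKM in DOS.115 through a median of 22.8 to 119 in DOS.57. NDUFA8 ran from 19.4 FPKM in DOS.100 through 68.2 to 159 in DOS.101. Most tumours lay near the median for NDUFS6 with a few far above it, while NDUFA8 was lowest in DOS.100 and DOS.32, one of the closely alike pairs. NDUFV2, in contrast, stayed between 15.3 and 40.2 FPKM, a 2.63-fold range.

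The mean level of these genes was compared with other parts of mitochondrial metabolism, using lists of genes outside the name rule. Over the 29 tumours it followed that of 17 mitochondrial carriers, porins and import proteins (r = 0.911, Spearman's rho 0.919), 58 mitochondrial ribosomal proteins (r = 0.896, rho 0.856), 36 assembly factors of the respiratory chain (r = 0.828, rho 0.817) and 13 electron carriers and enzymes of coenzyme Q synthesis (r = 0.801, rho 0.826). For 11 genes of the tricarboxylic acid cycle and pyruvate dehydrogenase it was 0.628 (rho 0.681), and for the cytosolic ribosomal proteins, which build the ribosome outside mitochondria, also 0.628 (rho 0.590). With the 2 tumours most distant from the other list's median left out, these values were 0.896, 0.860, 0.794, 0.805, 0.563 and 0.508 in the same order.

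Regulators of mitochondrial biogenesis followed the genes weakly. For the 16 regulators past the filter, among them the nuclear respiratory factor NRF1, the GA-binding protein subunits and the mitochondrial transcription factor TFAM, r was 0.244 (rho 0.184), and 0.071 without the 2 farthest tumours. PPARGC1A, the coactivator known as PGC-1 alpha, did not pass the filter and peaked at 0.394 FPKM among tumours. Its relative PPARGC1B ran from 1.01 to 8.19 FPKM with a median of 2.55.

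**Figure D3:**
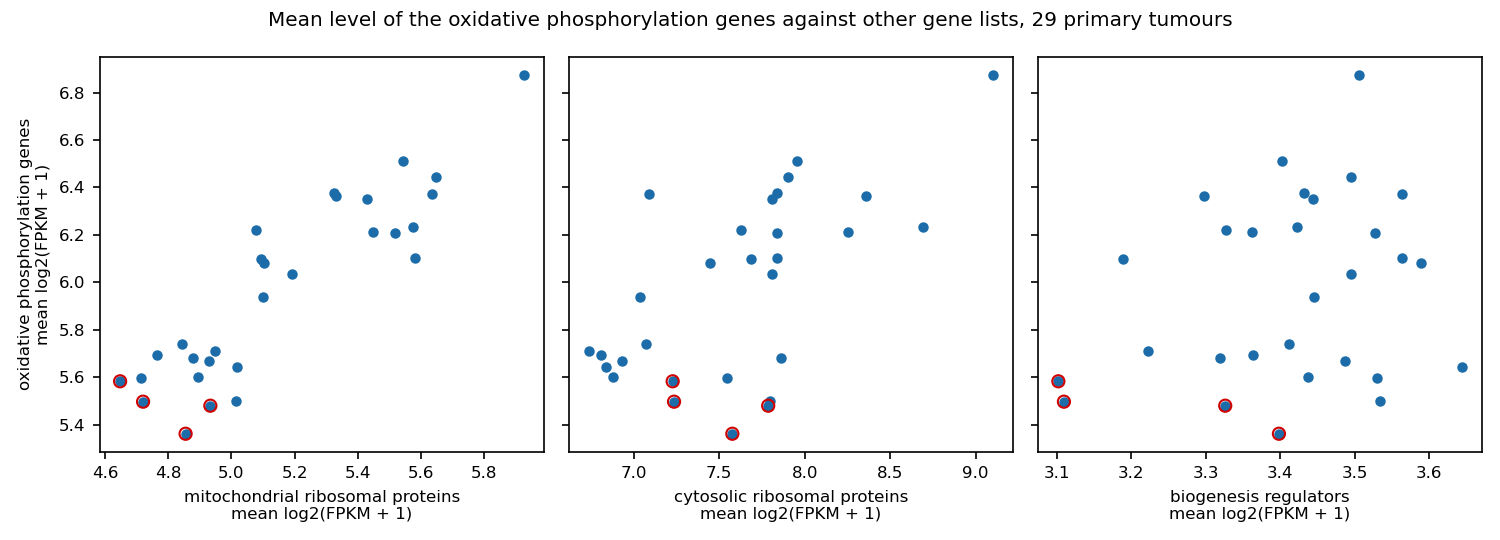
Mean level of the 42 oxidative phosphorylation genes (vertical axis) against the mean level of 58 mitochondrial ribosomal protein genes, 29 cytosolic ribosomal protein genes and 16 regulators of biogenesis (horizontal axes), all as mean log2(FPKM + 1), with 1 point per primary tumour. Red rings mark DOS.100, DOS.32, DOS.110 and DOS.115. The points follow a line for mitochondrial ribosomal proteins (r = 0.896), a looser one for cytosolic ribosomal proteins (r = 0.628) and little of one for the regulators (r = 0.244).

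Markers of other cell types were set beside the mean level in the same way. The r was 0.231 for macrophage markers, 0.315 for T cell markers, 0.0035 for endothelial markers, -0.032 for pericyte and smooth muscle markers, 0.016 for skeletal muscle markers and 0.119 for markers of bone-forming cells (n = 29). Against the summed FPKM of the library r was 0.225, and 0.463 without DOS.32 and DOS.115, and against the share of the 10 most abundant genes it was -0.392, which became -0.227 without those tumours. DOS.32 and DOS.115 had the highest such shares, 39.1% and 37.5%. The part of these shares in the low mean level of those tumours was not tested.

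The cell lines were compared with the 29 primary tumours to see how the genes differ between cultured tumour cells and tumour tissue. Of the 42 genes, 7 passed the test (limma, adjusted p below 0.05 over all genes tested), which is 16.7%, against 16.4% of all genes, so the share of called genes was near the background. Higher in the lines were 5 genes (11.9%, against 8.49% of all genes), namely UQCRC1, ATP5SL, NDUFB4, ATP5G1 and NDUFA10. Lower were 2 (4.76%, against 7.92%), COX4I2 and NDUFS1. In bulk samples, fewer cells of a type and less RNA per cell cannot be told apart. The median difference was 0.44 on the log2(FPKM + 1) scale over the 42 genes and -0.05 over all genes, with 30 of the 42 above 0 and 12 below. The signs of NDUFB11, NDUFV3 and UQCRFS1, all near 0, changed with the scaling of libraries. By single line the median was 0.44 for OSCA.8 and 0.44 for OSCA.78.

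The split of calls moved with the scaling of libraries. Over all genes 1288 were called higher and 1201 lower, against 962 and 1388 with upper quartile scaling and 1411 and 868 with every library scaled to the same sum. Among the 42 genes the corresponding calls were 5 higher and 2 lower, then 2 and 2, then 8 and 1.

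**Figure D4:**
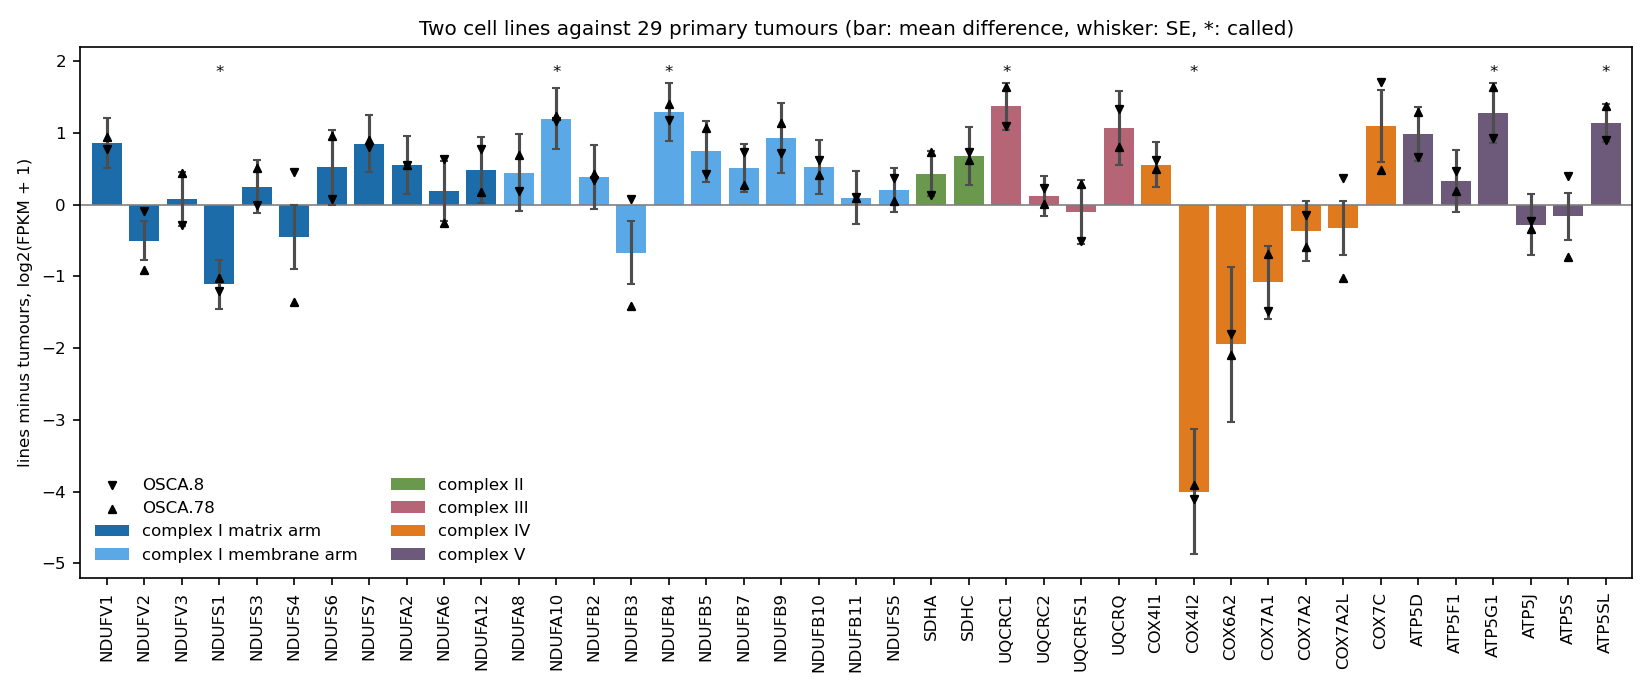
Difference between the mean of the 2 cell lines and the mean of 29 primary tumours for 41 of the 42 genes, on the log2(FPKM + 1) scale, coloured by complex. Bars are the fitted difference, whiskers its standard error, triangles the single lines, and stars the 7 genes called by limma. COX4I2 stands lowest at -4.00, COX6A2 has the next lowest bar at -1.95 without a call, and most bars of complexes I, II and III lie above 0.

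The genes called higher came from 3 of the complexes. UQCRC1, a core protein of complex III, ran from 33.8 FPKM through a median of 68.6 to 114.6 in tumours with 144 in OSCA.8 and 211 in OSCA.78. Both lines lay above every tumour, and the difference was 1.37 ± 0.32 (SE, limma adjusted p = 0.0034). Both lines were above every tumour for NDUFA10 as well, an accessory subunit of the membrane arm of complex I. It ran from 29.1 through 75.3 to 155 FPKM in tumours and stood at 167 and 175 in OSCA.8 and OSCA.78 (difference 1.20 ± 0.42 SE, limma adjusted p = 0.0467). Over all genes, 4.04% had both lines above every tumour, and 2 of the 42 genes here (4.76%) did. With upper quartile scaling it was 1 gene (2.38%, against 3.28% of all genes) and with scaling to the same sum 7 (16.7%, against 5.33%).

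For the other genes called higher the ranges overlapped. NDUFB4, another membrane arm subunit, was at 298 FPKM in OSCA.8 against 348 in OSCA.78, where tumours ran from 65.0 through 128 to 401, so that a single tumour, DOS.8, exceeded both lines (1.30 ± 0.41 SE, limma adjusted p = 0.0257). ATP5G1 encodes subunit c, which forms the rotating ring of ATP synthase. It stood at 113.3 and 186 FPKM in OSCA.8 and OSCA.78, and tumours ran from 28.4 through 55.1 to 150 (1.28 ± 0.42 SE, limma adjusted p = 0.0339). ATP5SL stood at 15.2 and 21.4 FPKM in OSCA.8 and OSCA.78, and tumours from 5.12 through 7.02 to 16.1 (1.14 ± 0.27 SE, limma adjusted p = 0.0036). In each of these genes OSCA.78 was the higher line, and DOS.8 was the highest tumour and lay above OSCA.8, the line with its title number.

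NDUFS1 fell in the lines. It ran from 22.9 through 40.7 to 86.0 FPKM in tumours and stood at 18.9 in OSCA.8 and 21.6 in OSCA.78, both below every tumour (-1.11 ± 0.34 SE, limma adjusted p = 0.0234). The flavoprotein NDUFV1, of the same arm, stood on the other side of the tumour median. It was at 57.6 and 64.4 FPKM in OSCA.8 and OSCA.78 against a tumour median of 32.9 (0.86 ± 0.35 SE, limma adjusted p = 0.0861), which did not pass the threshold.

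These calls rest on 2 lines, and their SE and p-values hardly measure how lines vary. Without OSCA.78 none of the 7 genes passed in limma (adjusted p from 0.0729 for COX4I2 to 0.551 for ATP5G1, with 7 of the 42 genes at an unadjusted p below 0.05), and without OSCA.8 those of UQCRC1, ATP5SL and COX4I2 did. With upper quartile scaling the calls of NDUFA10, NDUFB4 and ATP5G1 ended, as did that of NDUFS1 with scaling to the same sum (limma adjusted p = 0.113) and that of NDUFA10 with quantile normalisation or no filter (limma adjusted p = 0.0585 in both).

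The remaining genes with the largest differences in their complexes did not pass. In complex II, SDHC was at 182 and 168 FPKM in OSCA.8 and OSCA.78 against a tumour range of 51.0 to 240 (0.68 ± 0.41 SE, limma adjusted p = 0.265). SDHA was at 95.0 and 146 FPKM against 53.3 to 167 (0.43 ± 0.32 SE, limma adjusted p = 0.373). Both lines lay inside the tumour range for each gene of complex II. UQCRQ was at 750 and 520 FPKM, within a tumour range of 123 to 797 (1.07 ± 0.52 SE, limma adjusted p = 0.156), and UQCRC2 differed by 0.12 ± 0.28 (SE, limma adjusted p = 0.798). COX7C, a small subunit of complex IV, was at 65.7 FPKM in OSCA.8 but 27.3 in OSCA.78, with tumours from 7.76 to 66.9 (1.10 ± 0.50 SE, limma adjusted p = 0.132). ATP5D was at 174 and 269 FPKM with tumours from 56.8 to 256 (0.98 ± 0.38 SE, limma adjusted p = 0.0686), and without DOS.57 it passed (limma adjusted p = 0.0477).

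COX4I2 had the largest difference between tumours and lines of the 42 genes. Subunit 4 of complex IV exists in 2 forms, of which COX4I1 is present in nearly all tissues. COX4I2 ran from 4.14 FPKM in DOS.105 through a median of 16.9 to 91.0 in DOS.113, and stood at 0.148 in OSCA.8, 0.314 in OSCA.78 and 0.201 in the osteoblast culture. All 3 cultures lay below every tumour, and the metastasis, at 45.8 FPKM, lay inside the tumour range. For the lines the difference was -4.00 ± 0.87 (SE, limma adjusted p = 0.0018), on a scale that understates changes of low values. Both lines were below every tumour for 2 of the 42 genes (COX4I2 and NDUFS1, 4.76%), against 7.3% of all genes. COX4I1 was at 502 and 461 FPKM in OSCA.8 and OSCA.78 against 185 to 620 in tumours (0.56 ± 0.32 SE, limma adjusted p = 0.232). The ratio of COX4I2 to COX4I1 in FPKM ran from 0.00758 through 0.0478 to 0.244 in tumours, and was 0.000296 in OSCA.8, 0.00068 in OSCA.78, 0.000193 in the osteoblast culture and 0.0846 in the metastasis.

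**Figure D5:**
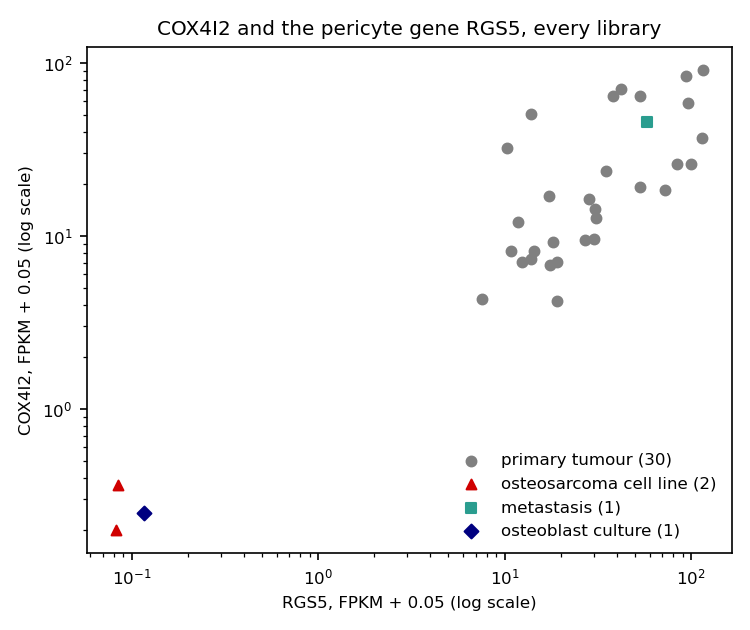
COX4I2 against RGS5, a gene of pericytes, in every library, both in FPKM with 0.05 added on log axes. Circles are the 30 primary tumour libraries, triangles the cell lines, the square the metastasis and the diamond the osteoblast culture. The 3 cultures sit below 0.4 FPKM on both axes, and tumours high in RGS5 tend to be high in COX4I2 (r = 0.675 over 29 tumours).

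Markers of pericytes, the cells that wrap capillaries, moved with COX4I2 among tumours. On the log2(FPKM + 1) scale its r was 0.675 with RGS5 (rho 0.666, and 0.626 without the 2 farthest tumours), 0.693 with MCAM and 0.686 with HIGD1B, and 0.581 with the endothelial gene PECAM1 (n = 29). Without DOS.32 and DOS.115 the first 3 were 0.676, 0.700 and 0.701. Not all markers on the list went the same way, since r was 0.431 for TAGLN, -0.107 for NOTCH3 and -0.452 for CSPG4. RGS5 ran from 7.55 through 29.3 to 115.4 FPKM in tumours and was at 0.0325 in OSCA.8, 0.0345 in OSCA.78 and 0.0663 in the osteoblast culture. Of the 8 pericyte and smooth muscle markers measured, 3 fell in the lines, RGS5, KCNMB1 and MCAM (limma adjusted p = 5.1e-05, 0.0173 and 0.0256). The call of RGS5 held without either line, and those of KCNMB1 and MCAM ended without either. HIGD1B was listed at 0 in OSCA.8 and in the osteoblast culture and was at 0.203 FPKM in OSCA.78. The sum of the list was 350 FPKM in OSCA.8, 1747 in OSCA.78 and 48006 in the osteoblast culture against 88.6 to 1827 in tumours, and in the cultures most of it came from TAGLN, a gene of contractile cells. Of 9 endothelial markers 8 fell in the lines, and the list summed to 31.96 and 48.2 FPKM there against 110.6 to 2516 in tumours. The part of such cells in the level of COX4I2 was not tested.

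The muscle forms of complex IV subunits behaved differently from each other. COX6A2 ran from 0 to 25.8 FPKM in tumours with a median of 2.80, and was at 0.221 in OSCA.8, listed at 0 in OSCA.78, and at 2.82 in the metastasis and 1.77 in the osteoblast culture. The difference of the lines did not pass the test (-1.95 ± 1.08 SE, limma adjusted p = 0.223). Among 11 skeletal muscle markers past the filter, its r over tumours was highest for MB, myoglobin, at 0.672 (rho 0.723, and 0.638 without the 2 farthest tumours), and lay between -0.188 and 0.496 for the rest. That list summed to 3.78 to 369 FPKM in tumours, 4.44 in OSCA.8, 6.99 in OSCA.78 and 724 in the osteoblast culture, and none of it was called in the lines. Its part in the level of COX6A2 was not tested.

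COX7A1, the muscle form of subunit 7A, was by contrast well expressed. It ran from 37.5 through 130 to 317 FPKM in tumours and exceeded COX7A2, the common form, in 29 of 29 of them, with a ratio from 1.02 through 3.41 to 5.93. The lines were at 43.0 and 75.6 FPKM in OSCA.8 and OSCA.78 (-1.08 ± 0.51 SE, limma adjusted p = 0.143), with ratios of 1.21 and 2.90. In the osteoblast culture COX7A1 was at 311 FPKM and the ratio at 11.2, above every tumour. COX7A2 itself was at 35.6 and 26.1 FPKM in OSCA.8 and OSCA.78 and at 27.7 in the osteoblast culture, all inside its tumour range of 21.3 to 90.3. COX7A2L, a relative of subunit 7A that ties complexes III and IV together, ran from 19.3 to 71.7 FPKM in tumours, and OSCA.78 fell below that range at 16.4 while OSCA.8 was inside it at 44.6.

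Other genes of the pathway were counted in the same comparison, against 8.49% of all genes called higher and 7.92% called lower. Of 36 assembly factors 5 (13.9%) rose in the lines and none fell, namely ATPAF2, NDUFAF3, TTC19, COX10 and COX15. ATPAF2, a chaperone of ATP synthase, was at 30.8 and 25.1 FPKM in OSCA.8 and OSCA.78 against 5.99 to 19.2 in tumours (1.22 ± 0.30 SE, limma adjusted p = 0.0046). Of 13 electron carriers and coenzyme Q enzymes 2 (15.4%) rose and none fell. COQ4, needed for coenzyme Q synthesis, was at 34.5 and 42.5 FPKM against 8.04 to 19.8 (1.47 ± 0.28 SE, limma adjusted p = 4.6e-04). The other was COQ10A, which lay 0.44 above the tumour mean in OSCA.8 and 1.26 above in OSCA.78. Among 16 regulators GABPA, a subunit of the GA-binding protein, was called lower (6.25%, -1.03 ± 0.35 SE, limma adjusted p = 0.0414), with OSCA.8 at -0.27 and OSCA.78 at -1.78 from the tumour mean, so that OSCA.8 lay inside the tumour range. Among 17 carriers and import proteins TIMM17A fell (5.88%, -1.15 ± 0.37 SE, limma adjusted p = 0.0314). None of the 11 genes of the tricarboxylic acid cycle and pyruvate dehydrogenase passed, with a median difference of 0.11. Of 58 mitochondrial ribosomal proteins 4 rose (6.9%, under the share of all genes) and none fell.

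Without OSCA.78 none of the 5 assembly factors passed, nor did COQ4, COQ10A, GABPA or TIMM17A (limma adjusted p from 0.0702 for COQ4 to 0.865 for GABPA, whose difference was then -0.27). Without OSCA.8 TTC19, COQ4, COQ10A and GABPA passed. The calls of COX15 and COQ10A also ended with upper quartile scaling and with quantile normalisation, that of COX10 with the former, that of GABPA with quantile normalisation or the same sum, and that of TIMM17A with the same sum.

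NDUFA4L2, the paralog outside the rule, ran from 10.1 through 149 to 1869 FPKM in tumours and was at 2.78 in OSCA.8 and 0.307 in OSCA.78 (-6.40 ± 1.10 SE, limma adjusted p = 1.3e-04), yet at 4064 in the osteoblast culture. Its r with COX4I2 over tumours was -0.049 (n = 29).

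The metastasis is a single library, so its values are described without a test. The median difference from the tumour mean was 0.32 over the 42 genes and -0.01 over all genes, and the signs of 7 of the 42 changed with the scaling. By at least 1 on the log2(FPKM + 1) scale, 6 of the 42 genes (14.3%) stood higher, against 9.11% of all genes, and none stood lower, against 5.65%. NDUFB11, a membrane arm subunit, differed most, at 609 FPKM against 107 to 477 in tumours and 329 in DOS.6, the tumour with the same title number (1.70 above the tumour mean). NDUFV3, an accessory subunit of the matrix arm, was at 94.2 FPKM (1.27 above), COX4I2 at 45.8 (1.25 above), NDUFB9 of the membrane arm at 197 (1.14 above), UQCRFS1, the Rieske iron-sulphur protein of complex III, at 274 (1.07 above) and NDUFS6 at 59.1 (1.02 above). NDUFB11, UQCRFS1 and NDUFV3 lay above every tumour, the last 2 only just. For UQCRFS1 the highest tumour was at 270.8 FPKM, and NDUFV3 was level with its highest tumour. These 3 of the 42 genes (7.14%) compare with 5% of all genes above every tumour. With quantile normalisation it was 2 genes (4.76%, against 4.5% of all genes). With scaling to the same sum it was 1 (2.38%, against 3.41%). On the low side stood NDUFV2 at -0.79, ATP5D at -0.63, NDUFB7 of the membrane arm at -0.57, ATP5S at -0.43 and ATP5SL at -0.40 from the tumour mean, of which NDUFV2, at 13.8 FPKM, was below every tumour.

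Set against DOS.6 alone, the median difference of the metastasis was 0.09, with 23 genes higher and 19 lower. Over all genes the deviations of the metastasis from the tumour mean followed those of DOS.6 (r = 0.510) more than those of any other tumour, DOS.116 coming next at 0.195. NDUFV3 was at 94.2 FPKM in the metastasis and 39.2 in DOS.6, and NDUFB9 at 197 and 74.3. NDUFS6 and COX4I2, in contrast, were no higher than in DOS.6, where they stood at 61.5 and 64.5 FPKM.

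The osteoblast culture, a library whose summed FPKM was the highest of all, lay above every tumour for 19 of the 42 genes (45.2%). That compares with 22% of all genes. With upper quartile scaling it was 9 (21.4%, against 12%) and with quantile normalisation 7 (16.7%, against 14.9%). Scaling to the same sum left 4 (9.52%, against 6.23%). The median difference from the tumour mean was 1.31 over the 42 genes and -0.14 over all genes. By at least 1 on the log2(FPKM + 1) scale 24 genes (57.1%) were higher, against 25.8% of all genes, and 2 (4.76%) were lower, against 19.6%. The counts depend on how the libraries are scaled. With upper quartile scaling 11 genes were higher by that fold and 7 lower (14.5% and 31.9% of all genes). With quantile normalisation 5 were higher and 6 lower (18.2% and 16.5%), and with scaling to the same sum 4 were higher and 13 lower (7.95% and 40.7%), so the balance turned in both. Relative to the median of all genes, which these scalings moved to -0.49, -0.02 and -0.72, the median of the 42 genes was higher by 1.11, 0.39 and 0.86 in the same order, against 1.45 as deposited. The 42 genes and NDUFC1 took 0.767% of the summed FPKM of the culture, inside the 0.350% to 1.24% of the tumour libraries.

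Subunits of the same complex differed in the osteoblast culture. ATP5D was at 581 FPKM (2.41 above the tumour mean), NDUFA8 at 329 (2.35 above), NDUFB7 at 738 (2.33 above), UQCRC1 at 324 (2.26 above) and UQCRQ at 1226 (2.04 above). As deposited, each of them was among the 19 genes that lay above every tumour. At the other end COX4I2 stood at -4.04, NDUFS4, an accessory subunit of the matrix arm, at -1.04 with 48.7 FPKM, NDUFS1 at -0.84 with 24.6 FPKM, NDUFV2 at -0.71 with 14.7 FPKM and COX6A2 at -0.62. NDUFV2 was below every tumour, as it was in OSCA.78 at 12.7 FPKM. Within complex III, UQCRC2 stood at -0.04 beside UQCRC1, and within complex V ATP5F1 stood at 0.00 and ATP5J at -0.11 beside ATP5D. The signs of 8 of the 42 genes changed with the scaling, SDHA, NDUFA6, ATP5F1, UQCRFS1, COX7C, ATP5S, NDUFB5 and NDUFS5. Those of the 10 genes named as extremes did not.

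As deposited, the median difference of the osteoblast culture was 1.52 in the membrane arm of complex I and 1.24 in its matrix arm. It was 0.96 in complex II, 1.47 in complex III, -0.18 in complex IV and 0.98 in complex V. Cytosolic ribosomal proteins gave 1.30 and mitochondrial ribosomal proteins 1.08, so the median of the 42 genes was near theirs. Assembly factors gave 0.60, enzymes of the tricarboxylic acid cycle and pyruvate dehydrogenase 0.04, and regulators of biogenesis -0.61. Compared with the mean of the cell lines, the culture was higher by a median of 0.68 over the 42 genes, with 32 higher and 10 lower. The values by complex and list, and those against the lines, are as deposited and were not recomputed with other scalings. Upper quartile scaling, quantile normalisation and the same sum brought the median of the 42 genes to 0.63, 0.37 and 0.14. In complex II, the same sum put SDHA at -1.01 and SDHC at 0.59.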

How the data were processed

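The authors deposited 1 table of expression values for 34 libraries (total RNA, TruSeq RNA v2, per the labels' protocols). Its header gives no unit. The deposited values were read as FPKM because the submitters' processing notes list FastQC 0.11.2, TopHat2 2.0.13 and Cufflinks 2.2.1 with the assembly canFam3, and the column sums differ. The sources used here do not give the annotation, the parameters, the order of steps or what was masked in the table. Of 23988 rows, 9653 carry only an Ensembl identifier and enter counts over all genes only.

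Rows reaching 1 FPKM in 2 or more libraries entered (15165), 1 FPKM was added and log2 taken. DOS.46 and DOS.46.2 were averaged on that scale. The 2 lines were compared with 29 primary tumours in limma 3.58.1 under R 4.3.3 (lmFit, then eBayes with its trend and robust settings). P-values were two-sided and adjusted by Benjamini-Hochberg over all genes kept, with a threshold of 0.05. The fit was run on simulated data in which genes varied independently and the lines had the spread of the tumours. It therefore could not check whether lines vary as tumours do. With 1 library each, the metastasis and the osteoblast culture were described only, using a difference of 1 on the log2 scale as the fold. Correlations used Python 3.11.15 with numpy 2.4.6, scipy 1.17.1 and pandas 2.3.3, over 29 tumours, and carry no test. Figures used matplotlib 3.10.9.

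The genes, the pathway and marker lists and the tests were chosen with earlier results of these data known, and the 2 ribosomal lists after their values were seen. Named are, per complex, the genes of highest and lowest tumour mean and the 3 of largest difference in the lines, all genes called there, the 5 of largest and of smallest SD, isoforms and their partners, the SDH genes, the 5 farthest from the tumour mean in either direction in the metastasis and in the culture, and up to 5 called genes of each other list. Other genes named were picked after their values were seen. Alternatives were other pseudocounts, filters, scalings, limma options, groups in the fit, DOS.46 and DOS.46.2 kept apart, each line left out and a block for the title number. Leaving out DOS.57, or DOS.32 and DOS.115, was chosen after seeing the data. No sequence or coordinate is given, since no genome of this build was used here. The values of 1 gene are not reported here, and that gene enters only the counts and summaries.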

Additional observations from a re-analysis of the deposited data

How the results depend on the processing

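The 19 genes followed, those called or nearest to a call in the lines, kept their direction in each alternative that tested them (NDUFB5 did not pass the filter at a mean of 5 FPKM), while sizes and counts moved. With a mean of at least 5 FPKM as the filter, 713 of all genes were called higher. With upper quartile scaling 4 of the 42 genes were called, 2 of them higher, and the median difference of the osteoblast culture was 0.63. Quantile normalisation gave 0.37 for that difference, a median SD among tumours of 0.50 and a mean pairwise correlation of 0.325. Scaling to the same sum gave 8 genes called higher, 1 lower and 0.14 for the culture, and brought NDUFV1 and ATP5D, among others, past the threshold. Leaving out each line in turn gave 344 to 1998 calls over all genes (199 to 979 higher, 145 to 1019 lower) and 0 to 3 among the 42 genes (0 to 2 higher, 0 to 1 lower), with the lone line assumed to vary like the tumours. The low ends came without OSCA.78, which left 7 of the 42 genes at an unadjusted p below 0.05 in limma. A block for the title number kept only OSCA.8 with DOS.8 and OSCA.78 with DOS.78, and limma then called 0 genes, 0 higher and 0 lower, with 3205 of all genes and 6 of the 42 at an unadjusted p below 0.05. The design of that fit has fewer samples. Deviations of each line from the mean of the 2 lines followed those of the tumour with its number at r = 0.195 (DOS.8) and 0.164 (DOS.78) across genes. On that reference 1 line is the mirror of the other, which gave -0.195 with DOS.8 for OSCA.78 and -0.164 with DOS.78 for OSCA.8. These r are thus no separate measures of each line and are not comparable with the r of the metastasis and DOS.6. Nothing in the labels pairs lines and tumours beyond the number. The blocked differences of the 7 called genes were -3.67 for COX4I2, -1.09 for NDUFS1, 1.01 for UQCRC1, 0.50 for ATP5SL, 0.46 for ATP5G1, 0.36 for NDUFA10 and 0.29 for NDUFB4 (limma adjusted p from 0.111 to 0.749). The last 4 were 1.14, 1.28, 1.20 and 1.30 against all tumours. The median difference of the lines ran from 0.12 in the blocked fit to 0.60 with scaling to the same sum. Depth in reads is unknown, so no counting error is attached to low values such as those of COX4I2 in the lines.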

Other observations

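The lines were also set beside the tumours with their own title numbers, although the labels do not say that they share a dog. Over the 42 genes the median difference was -0.26 for OSCA.8 minus DOS.8 (16 genes higher, 26 lower) and 0.44 for OSCA.78 minus DOS.78 (26 higher, 16 lower), with a median of 0 over all genes in both pairs. DOS.8 itself had the third highest mean level among tumours, 6.44, and DOS.78 was the median tumour at 6.04.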
